A study of Mus musculus with 5 samples.

Results

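The genes described here encode the TALE cofactors of Hox proteins, which are the Meis, Pbx and Pknox homeodomain factors that bind DNA together with them. They were chosen by name as Meis1, Meis2, Meis3, Pbx2, Pbx3, Pbx4, Pknox1 and Pknox2, and every probe whose accession led to 1 of these symbols was taken. All 8 genes were found, with 11 of the 26300 probes that matched a gene symbol, out of 19897 genes and 55681 mouse probes in all. The study followed wild-type male mouse embryonic stem cells (ES) on their way to spinal motor neurons, and measured total RNA on Agilent one-colour arrays with Cy3 label, using 1 array per time point. The later samples were embryoid bodies after 8 h of retinoic acid (RA; Day2), after 1 day (Day3) and after 2 days (Day4), and a culture labelled as motor neurons after 5 days (Day7). Retinoic acid, a caudalizing signal, was given together with a hedgehog signal, which the labels name as Shh and the methods as the smoothened agonist SAG. The labels' treatment notes place both factors between day 2 and day 5, so the label of 5 days of RA for Day7 runs past the stated end of treatment if the count starts at day 2. No untreated culture of the same age was analysed here, so time in culture, RA and the hedgehog signal cannot be told apart. The step from ES cells to Day2 in particular holds the formation of embryoid bodies as well as the 8 h of RA.

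TALE proteins carry a homeodomain with a three-amino-acid loop extension. Pbx proteins bind DNA next to many Hox proteins and sharpen their choice of site, whereas Meis and Pknox proteins bind Pbx, hold it in the nucleus and can join the complex on DNA. In the hindbrain and spinal cord these factors are known for work with Hox proteins in segment identity and motor neuron subtype, and Meis1 and Meis2 are known to respond to RA.

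Across the course, the cofactor genes rose or stayed within 2-fold of ES cells, and none was lowered 2-fold. Meis2 had made most of its rise by Day2, Pbx2 and Pknox2 were highest on Day3, Meis1 and Meis3 climbed to Day7, and Pbx3 rose between Day4 and Day7. Pbx4 and Pknox1 passed 2-fold in no comparison after quantile normalization. The 3 Meis genes all rose by Day3, Meis2 ahead of Meis1 and Meis3, so the reference sequence around their starts is shown, taken from RefSeq on GRCm38.p6, from 250 bases before to 50 bases after the gene's start, in the direction of transcription. Meis1 is on the minus strand at chr11:19018920-19019219, Meis2 on the minus strand at chr2:116064570-116064869 and Meis3 on the plus strand at chr7:16175145-16175444. Capitals mark matches, on either strand, to the RA receptor core site in the form AGGTCA or the form AGTTCA, the joint Hox and Pbx site TGATNNAT, the Pbx site TGATTG, the Meis and Pknox site TGACAG, the TATA box TATAAA, the CCAAT box and the GC box GGGCGG.
Meis1: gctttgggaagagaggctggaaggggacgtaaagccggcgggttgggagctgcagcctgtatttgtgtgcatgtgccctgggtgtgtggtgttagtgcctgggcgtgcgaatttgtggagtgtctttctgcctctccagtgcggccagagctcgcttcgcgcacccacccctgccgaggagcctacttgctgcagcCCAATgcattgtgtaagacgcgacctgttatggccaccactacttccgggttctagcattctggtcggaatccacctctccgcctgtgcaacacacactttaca
Meis2: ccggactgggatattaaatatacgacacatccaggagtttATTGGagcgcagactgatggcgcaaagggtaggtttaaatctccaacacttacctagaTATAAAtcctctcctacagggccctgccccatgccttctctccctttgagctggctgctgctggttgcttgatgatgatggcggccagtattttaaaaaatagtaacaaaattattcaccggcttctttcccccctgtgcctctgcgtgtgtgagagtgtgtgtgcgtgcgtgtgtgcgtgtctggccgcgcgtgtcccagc
Meis3: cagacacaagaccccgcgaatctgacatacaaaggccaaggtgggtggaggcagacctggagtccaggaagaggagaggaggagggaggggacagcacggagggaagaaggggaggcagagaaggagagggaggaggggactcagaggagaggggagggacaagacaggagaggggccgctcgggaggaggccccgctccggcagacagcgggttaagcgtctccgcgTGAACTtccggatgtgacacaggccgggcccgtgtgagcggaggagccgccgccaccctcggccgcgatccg

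The Meis1 window held a CCAAT box at -54, counted in bases from the gene's start. The Meis2 window held a TATA box at -152 and a CCAAT box on the other strand at -210. The Meis3 window held the core site AGTTCA on the other strand at -22, and neither other Meis window held an RA receptor core site. Of all 32851 windows of this length, 14.0% held AGTTCA, 16.3% held AGGTCA, 13.6% the TATA box, 37.4% the CCAAT box and 35.7% the GC box, and 8.85% held the Hox and Pbx site, 14.0% the Pbx site and 19.2% the Meis and Pknox site. Windows of 5 of the 8 genes were at hand, the others being Pbx2 with 2 GC boxes (at -142 and -83) and Pbx4 with a Pbx site at -199 that overlaps 1 of its 2 CCAAT boxes. Direct repeats of the RA receptor core site with a spacing of 1, 2 or 5 bases were in none of the 5 windows and in at most 0.0822% of all windows. CpG dinucleotides numbered 15 for Meis1, 13 for Meis2, 21 for Meis3, 29 for Pbx2 and 19 for Pbx4, against a median of 7 over all windows. A match is a run of letters and not a bound site.

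Values are log2 signals after quantile normalization, in which all 5 arrays are given the same distribution, and a gene with several probes is represented by the brightest on average. Signals of different probes cannot be set against each other, so only changes over time are compared, also where signals are summed over a list. A gene is called raised or lowered here if it moved at least 2-fold, a rule of size without a p-value, since 1 array per time point leaves no spread between replicates. The only error at hand is the scanner software's own estimate for a spot, 0.14 to 0.16 log2 units for the brightest probes and 0.20 to 0.22 for a change between arrays, which covers technical error within the arrays. All 8 genes were well above background on all 5 arrays by their brightest probe. RNA came from whole cultures, so fewer cells of a type and less RNA per cell cannot be told apart.

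Not all arrays were alike. On Day2, 86.7% of mouse probes were well above background, against 57.5% to 65.7% on the other 4 arrays, and ERCC probes, which match no mouse gene, passed in 65.6% of cases against 4.17% to 9.38%. Olfactory receptor probes, a set of 1155 for genes of the nose, passed in 70.0% of cases on Day2 and in 8.74% to 14.1% on the others. Day7 alone was on a second slide, so slide and stage cannot be told apart there. Shifting the arrays to their 75th percentiles moved the share of raised among all changed genes from 48.7% to 74.9% from ES to Day2 and from 60.3% to 48.0% from ES to Day3, with all-gene medians between -0.35 and 0.04 across the 5 comparisons. Without normalization the all-gene median was 0.27, -0.63, -1.06 and 0.01 from ES to Day2, Day3, Day4 and Day7 and 1.06 from Day4 to Day7, and the raised share was 85.4%, 17.9%, 9.5%, 54.7% and 94.0%. With normalization the median was 0.00, 0.06, 0.05, -0.07 and -0.12, and the later raised shares were 54.1% (Day4), 50.4% (Day7) and 49.9% (Day4 to Day7).

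**Figure D1:**
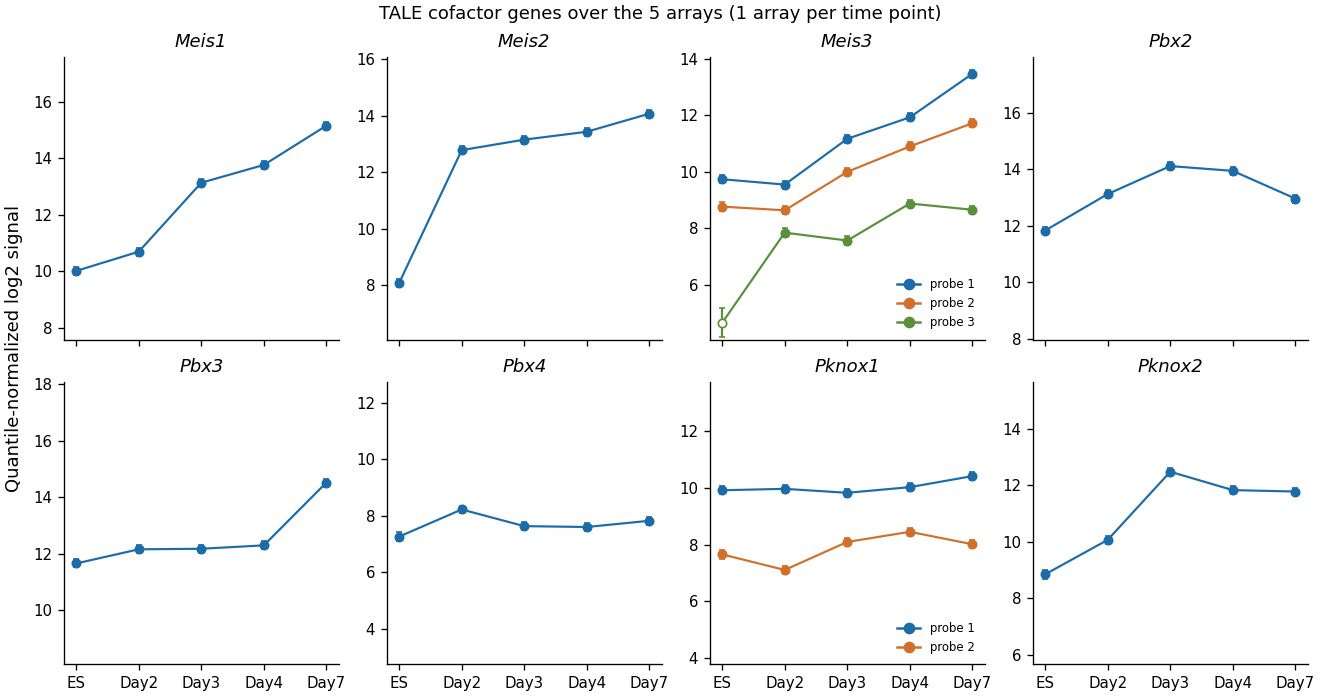
Quantile-normalized log2 signal (vertical axis) of each probe of the 8 genes on the 5 arrays (horizontal axis), with 1 array per time point, error bars of the scanner software's estimate, and an open symbol where a probe was not well above background. Each panel spans the same number of log2 units, so slopes but not heights can be compared between panels, and Meis2 rises by 4.70 on Day2 whereas Pbx3 rises by 2.21 from Day4 to Day7.

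Of the 8 genes, 3 were raised from ES to Day2, where 10.7% of 18316 genes were raised and 11.3% lowered. On Day3, 5 were raised (15.6% of 15203 genes raised, 10.2% lowered), on Day4 again 5 (17.0% raised, 14.4% lowered) and on Day7 6 (24.8% raised, 24.4% lowered). From Day4 to Day7, 3 were raised (2 without Meis3, whose other probes stayed within 2-fold), beside 18.1% of all genes raised and 18.1% lowered. The median log2 change of the 8 genes was 0.82, 1.86, 2.15 and 2.90 from ES to Day2, Day3, Day4 and Day7, and 0.52 from Day4 to Day7. These 5 comparisons share arrays, since 4 use the same ES array and the fifth repeats Day4 and Day7.

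Meis2 encodes a cofactor expressed widely in the caudal neural tube and in other embryonic tissues. Its log2 signal was 8.09 in ES cells, then 12.79 (Day2), 13.16 (Day3), 13.44 (Day4) and 14.08 (Day7). The step from ES to Day2, 4.70 or 26.0-fold, made up most of its range of 5.99. From ES to Day2, 119 of 18316 genes (0.650%) rose as much or more. After Day2, Meis2 gained 0.37 to Day3, 0.28 to Day4 and 0.64 to Day7, each short of 2-fold. It stood 63.7-fold above ES cells on Day7. Its ES to Day2 change lay between 4.39 and 4.95 in all 11 settings in which it was computed and passed 2-fold in each. Meis2 has 1 probe, bright on every array, so settings of probe choice, detection flag and dim probes repeated 4.70.

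Meis1, which works with Hox proteins also in blood stem cells, followed later. The log2 signal of Meis1 was 10.02 in ES cells, then 10.70 (Day2), 13.14 (Day3), 13.77 (Day4) and 15.16 (Day7). The step from ES to Day2 brought 0.68 (1.60-fold), short of the threshold, and the step from Day2 to Day3 brought 2.44 (5.44-fold). Meis1 was 13.5-fold above ES cells on Day4 and 35.4-fold on Day7, and the step from Day4 to Day7 alone was 2.63-fold. It was lowest in ES cells and higher on each later array, and each step exceeded the scanner error of 0.20.

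Meis3, a family member known for posterior neural patterning in vertebrate embryos, rose least of the 3. The brightest of its 3 probes read 9.73 in ES cells, then 9.54 (Day2), 11.16 (Day3), 11.92 (Day4) and 13.46 (Day7). Its change to Day2 was -0.19, less than the scanner error of a change (0.20), and it then rose 3.07-fold to Day3. It was 2.69-fold above ES cells on Day3, 4.54-fold on Day4 and 13.2-fold on Day7. The second probe took the same course, at 8.76, 8.63, 9.99, 10.89 and 11.71, although its rise from Day4 to Day7 was 0.82 against 1.54 for the first. The third and dimmest probe differed. It read 4.65 in ES cells, not well above background, then 7.84 (Day2), 7.56 (Day3), 8.87 (Day4) and 8.65 (Day7), which places Day2 at least 9.16-fold above ES cells. Its high Day2 value fell on the array on which more dim probes passed background, and the part of that in its value was not tested. With the mean over the 3 probes, Meis3 rose by at least 0.96 from ES to Day2, a bound since it holds the third probe, and changed by 0.71 from Day4 to Day7, and the third probe alone changed by -0.22 in the latter step.

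Pbx2 encodes a broadly expressed partner of Hox proteins. Its log2 signal was 11.83 in ES cells, then 13.12 (Day2), 14.11 (Day3), 13.94 (Day4) and 12.96 (Day7). It rose 2.44-fold to Day2 and 4.87-fold to Day3, and Day3 and Day4 differed by 0.17, less than the scanner error of 0.20. From Day4 to Day7 its change was -0.98 (1.97-fold), just within 2-fold, and -1.08 with a shift to the 75th percentile. Without normalization that step read 0.24, on arrays whose all-gene median was 1.06 higher on Day7. On Day7 it stood 2.19-fold above ES cells, a call lost with the shift to the 75th percentile, where the change was 0.72.

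Pbx3, which is expressed in many differentiating neurons, had the opposite timing. Its log2 signal was 11.66 in ES cells, then 12.16 (Day2), 12.18 (Day3), 12.30 (Day4) and 14.52 (Day7). The 3 embryoid body arrays differed from each other by less than the scanner error, and each lay within 2-fold of ES cells. Pbx3 then rose 4.63-fold from Day4 to Day7, and was 7.26-fold above ES cells. Its small differences on Day3 and Day4 read -0.17 and -0.56 without normalization, while the Day7 change lay between 2.33 and 2.88 in all 11 settings. Pbx3 too has 1 probe, bright on every array, so settings of probe choice, detection flag and dim probes repeated 2.86.

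Pbx4 is the family member best known from the testis in adult mice. Its log2 signal was 7.27 in ES cells, then 8.23 (Day2), 7.64 (Day3), 7.61 (Day4) and 7.83 (Day7). Its widest difference was 0.95 from ES to Day2, and under 3 settings, on the array where more dim probes passed background, this passed 2-fold (up to 1.51 without normalization). On the other arrays it differed from ES cells by 0.34 to 0.55. Without normalization it read -0.20 on Day3 and -0.56 on Day4, and 1.49 from Day4 to Day7, where the all-gene median was 1.06.

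Pknox1 (also called Prep1) is a near-ubiquitous partner of Pbx proteins that is needed early in the embryo. Its brighter probe read 9.92 in ES cells, then 9.97 (Day2), 9.83 (Day3), 10.03 (Day4) and 10.42 (Day7), a range of 0.60. A second, dimmer probe read 7.65, 7.10, 8.09, 8.45 and 8.01. The probes had opposite signs from ES to Day2, from ES to Day3 and from Day4 to Day7, but neither passed 2-fold in any of the 5 comparisons after quantile normalization. Without normalization the brighter probe changed by 1.70 from Day4 to Day7, where the all-gene median was 1.06.

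Pknox2 (Prep2), the more restricted paralog of Pknox1, was not flat. Its log2 signal was 8.84 in ES cells, then 10.06 (Day2), 12.47 (Day3), 11.82 (Day4) and 11.77 (Day7). It rose 2.33-fold to Day2 and a further 5.33-fold to Day3, where it stood 12.4-fold above ES cells. From Day3 to Day4 it changed by -0.65, and Day4 and Day7 differed by 0.04, less than the scanner error. On Day7 it was still 7.65-fold above ES cells.

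**Figure D2:**
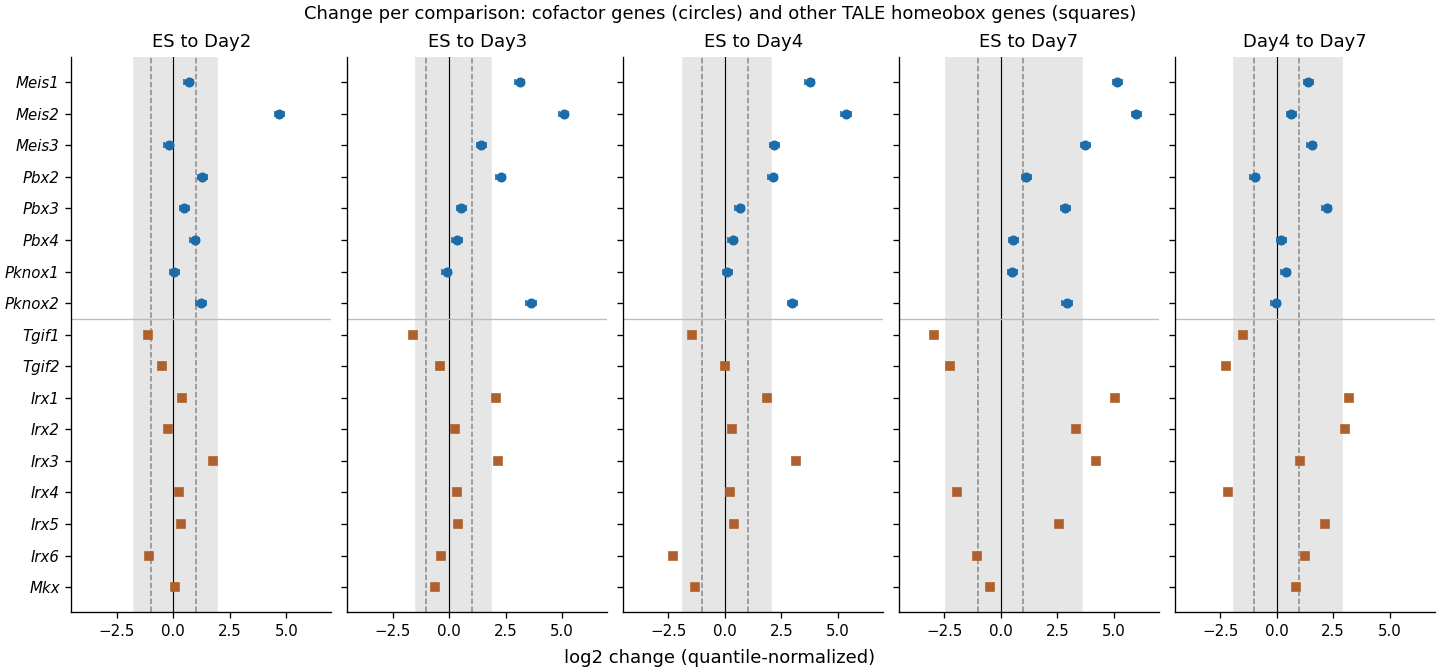
Log2 change (horizontal axis) of the 8 cofactor genes (circles, with the scanner error of a change) and of 9 other TALE homeobox genes (squares) in 5 comparisons, with dashed lines at 2-fold and a grey band from the 5th to the 95th percentile of all genes. From ES to Day2 Meis2 alone of the 8 lies beyond the upper edge of the band (1.96), whereas from ES to Day3 Meis1, Meis2, Pbx2 and Pknox2 do (1.84).

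The courses of the 8 genes were compared by the root mean square difference of their log2 values over the 5 arrays, each centred on its own mean. The smallest differences were between Pbx4 and Pknox1 (0.33), which hardly moved, between Meis1 and Meis3 (0.62) and between Pbx2 and Pknox2 (0.74). The largest was between Meis2 and Pknox1 (2.07). Members of a family were not closest as a rule, since Meis1 and Meis2 differed by 1.35 and Pbx2 and Pbx3 by 1.25. Over 5 arrays this measure is a description of these cultures.

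Among 13468 genes well above background on all 5 arrays, those nearest in course to each moving cofactor gene were found with the same measure. For Meis2 they were Rarb, an RA receptor (0.407), and the Hox genes Hoxb3 (0.434) and Hoxa3 (0.508). Rarb read 6.82 in ES cells, then 12.09 (Day2), 12.51 (Day3), 12.77 (Day4) and 12.42 (Day7), so that its main step, like that of Meis2, lay between ES and Day2. For Meis1 the nearest were Sh3pxd2b, a podosome scaffold (0.277), Sncaip (0.291) and Tcaf1 (0.297). For Meis3 they were Timp2, an inhibitor of matrix proteases (0.069), the imprinted gene Ndn (0.113) and Cd24a, a surface glycoprotein (0.152). Timp2 read 9.85, 9.69, 11.34, 12.16 and 13.50.

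For Pbx2 the nearest were the collagen gene Col16a1 (0.048), the histone chaperone gene Npm2 (0.125) and Ring1, a Polycomb ubiquitin ligase (0.141). For Pbx3 they were Amz2 (0.067), Agtpbp1, a tubulin-processing carboxypeptidase (0.090), and the TALE gene Irx5 (0.104). Irx5 read 6.92 in ES cells, then 7.26 (Day2), 7.32 (Day3), 7.33 (Day4) and 9.48 (Day7). For Pknox2 they were Zadh2 (0.297), Cdkn2c, an inhibitor of cyclin-dependent kinases (0.348), and Opn3 (0.349). The nearest genes of Meis2 were thus farther from it than those of the other 5, in a course with a larger range.

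**Figure D3:**
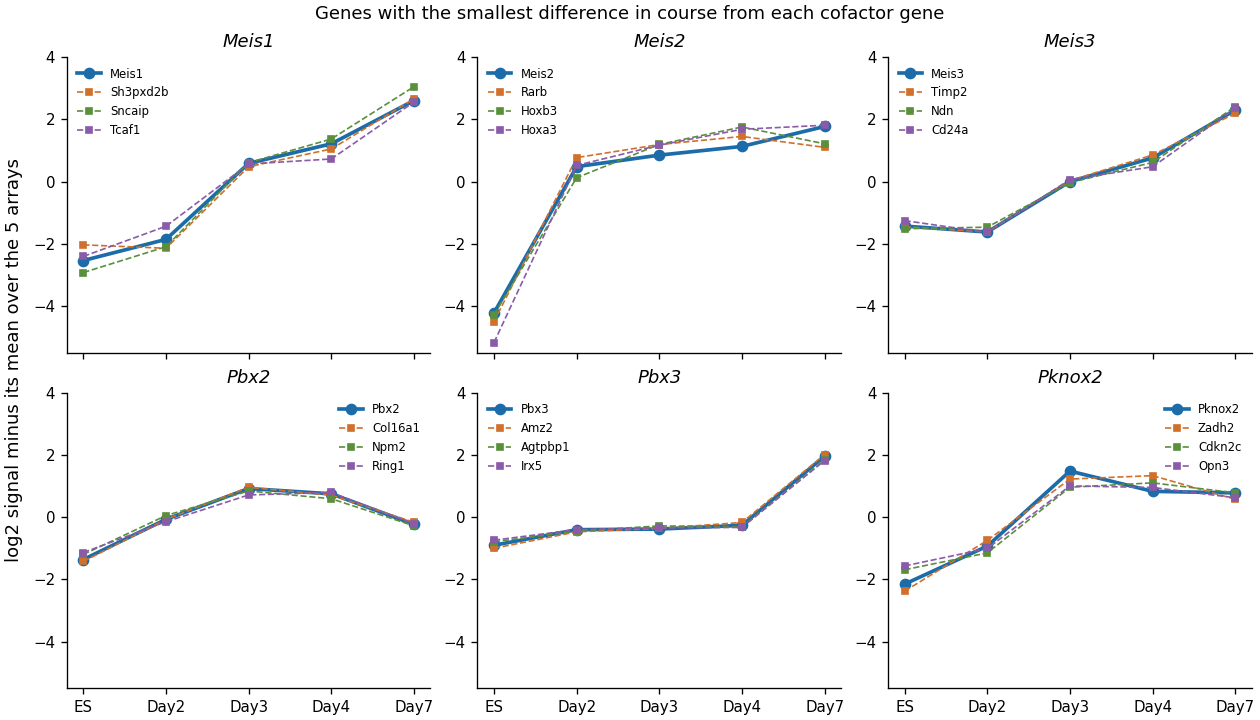
Log2 signal minus its mean over the 5 arrays (vertical axis) against the array (horizontal axis), for 6 cofactor genes (thick lines) and the 3 genes nearest to each (dashed lines), with 1 array per time point. Meis2 and its nearest genes step up between ES and Day2, whereas Pbx3 and its nearest genes step up between Day4 and Day7.

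Other TALE homeobox genes, which are not Hox cofactors of the Pbx and Meis kind, moved in both directions. Of 9 (Tgif1, Tgif2, Irx1 to Irx6 and Mkx), 1 was raised and 2 were lowered from ES to Day2, 2 and 1 on Day3, and 2 and 3 on Day4. Of all genes, 10.7% were raised and 11.3% lowered on Day2, 15.6% and 10.2% on Day3, and 17.0% and 14.4% on Day4. With 9 genes, the raised counts lie near these shares. The 2 lowered on Day2 became 1 with the shift to the 75th percentile, without normalization, with normexp, with the deposited values and with the ERCC floor, and the 1 raised became 2 without normalization, with the mean over probes and with the second brightest probe. Without normalization 2 were lowered on Day3 and 1 was raised on Day4. On Day7, 4 were raised and 4 lowered, with a median of -0.50, beside 24.8% of all genes raised and 24.4% lowered. Tgif1, a transcriptional repressor that restrains TGF-beta and RA signalling, read 14.55 in ES cells, then 13.43 (Day2), 12.96 (Day3), 13.10 (Day4) and 11.60 (Day7). Tgif1 was thus lowered in all 4 comparisons with ES cells, with a change of -2.95 by Day7. Irx1, an Iroquois factor of neural patterning, read 8.09, 8.49, 10.15, 9.95 and 13.15, a rise of 5.06 by Day7, and Irx3, another, rose by 1.74 on Day2 and 4.19 by Day7. From Day4 to Day7, 5 of the 9 were raised and 3 lowered, beside 18.1% of all genes raised and 18.1% lowered.

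The Hox genes of paralog groups 1 to 8, partners of the TALE cofactors, moved further from ES cells than these. Of the 23, 17 of 22 with a value were raised from ES to Day2, 20 of 22 on Day3, 22 of 23 on Day4 and 20 of 22 on Day7, with median changes of 4.26, 6.03, 6.84 and 5.67, and none was lowered (1 on Day3 without normalization). Of these changes, 8, 11, 11 and 10 are lower bounds, since the probe was well above background on just 1 of the arrays compared, and 10, 10, 11 and 10 were raised when such genes were removed. From Day4 to Day7, 4 were raised and 10 lowered, with a median of -0.54, while among the cofactors 3 were raised. Without normalization the Hox balance turned, to 11 raised and 4 lowered, and 7 cofactor genes were raised. Of 7 genes reported to be targets of Hox and TALE complexes, 4 of them in the Hox list as well, 6 were raised from ES to Day2 and 5 on each of Day3, Day4 and Day7, when 1 (Pax6) was lowered (none with normexp or the second brightest probe, 2 with the shift to the 75th percentile or the deposited values), and from Day4 to Day7 1 was raised and 3 were lowered. With genes not above background on 1 of the arrays removed, 3 were raised on each of Day3, Day4 and Day7, and without normalization 4 were raised from Day4 to Day7. Pax6, a progenitor factor, read 6.77 in ES cells, then 7.98 (Day2), 10.21 (Day3), 10.28 (Day4) and 5.17 (Day7). Aldh1a2, which makes RA in motor neurons and mesoderm, lay within 2-fold of ES cells until Day4 and was raised by 6.66 on Day7.

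The labels were checked against cell type markers. Pluripotency genes were lowered in 4 of 6 cases on Day2 and Day3 and 5 of 6 on Day4 and Day7, and their summed linear signal was 56227 in ES cells, then 14516 (Day2), 8773 (Day3), 8869 (Day4) and 4500 (Day7). Of 6 neural progenitor genes, 1 was raised and 3 were lowered on Day2, 3 and 2 on Day3, 3 and none on Day4, and 4 and 2 on Day7, and their summed signal was 9754 in ES cells, then 5011 (Day2), 10692 (Day3), 22467 (Day4) and 44297 (Day7). That sum, like each of the sums given here, is led by its brightest probes. From Day4 to Day7 2 of the 6 progenitor genes were raised and 2 lowered, with changes of -5.11 for Pax6 and -4.12 for Olig2. Of the 5 motor neuron genes with a probe (Isl1, Isl2, Lhx3, Chat and Slc18a3), none was raised and 1 lowered on Day2, and 1 and 2 on Day3. On Day4, 4 were raised and none lowered, with rises of 1.01 to 1.84, the last a bound for Chat. Of 6 general neuron genes, 1 was raised and 1 lowered on Day2, 2 and 2 on Day3, and 2 and 1 on Day4. On Day7, all 6 neuron genes and all 5 motor neuron genes were raised. The summed motor neuron signal was 994 to 2177 up to Day4 and 70644 on Day7, and that of the neuron genes 6017 to 13654 up to Day4 and 371793 on Day7. Markers of other cell types moved too. Of floor plate genes with a value, 2 of 3 were raised on Day2 and 1 lowered, 3 of 3 were raised on Day3 and Day4 and 4 of 4 on Day7, with Shh not well above background before Day7. Their summed signal was 512 in ES cells, then 1268 (Day2), 2908 (Day3), 5412 (Day4) and 57013 (Day7). Of the interneuron genes, 3 of 5 with a value were raised on Day7 (summed signal 1228 on Day4 and 2093 on Day7), with En1 not well above background. Of mesoderm and endoderm genes with a value, none of 5 was raised on Day2, 2 of 5 on Day3, 3 of 6 on Day4 (Gata6 by 4.27) and none of 5 on Day7, with a summed signal of 930 in ES cells, then 540 (Day2), 1285 (Day3), 2611 (Day4) and 416 (Day7), and of glial genes none was raised over ES cells. The rises of Meis1, Meis3 and Pbx3 from Day4 to Day7 thus went together with markers of neurons, motor neurons and floor plate, and the Meis3 call in that step was lost with other probes (0.71 for the mean over probes, 0.82 for the second). The rises of Meis1, Meis2, Meis3, Pbx2 and Pknox2 by Day3 and Day4 went together with lower pluripotency genes and with raised genes of the floor plate, neural progenitor and mesoderm and endoderm lists. On Day4 genes of the motor neuron list were raised as well, and general neuron genes moved in both directions. From ES to Day2, when Meis2 rose, floor plate Foxa2 changed by 2.96, Foxa1 by 1.12 and Ntn1 by -1.22, and of the progenitor genes 1 was raised and 3 were lowered. The part of cell makeup in any of them was not tested.

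**Figure D4:**
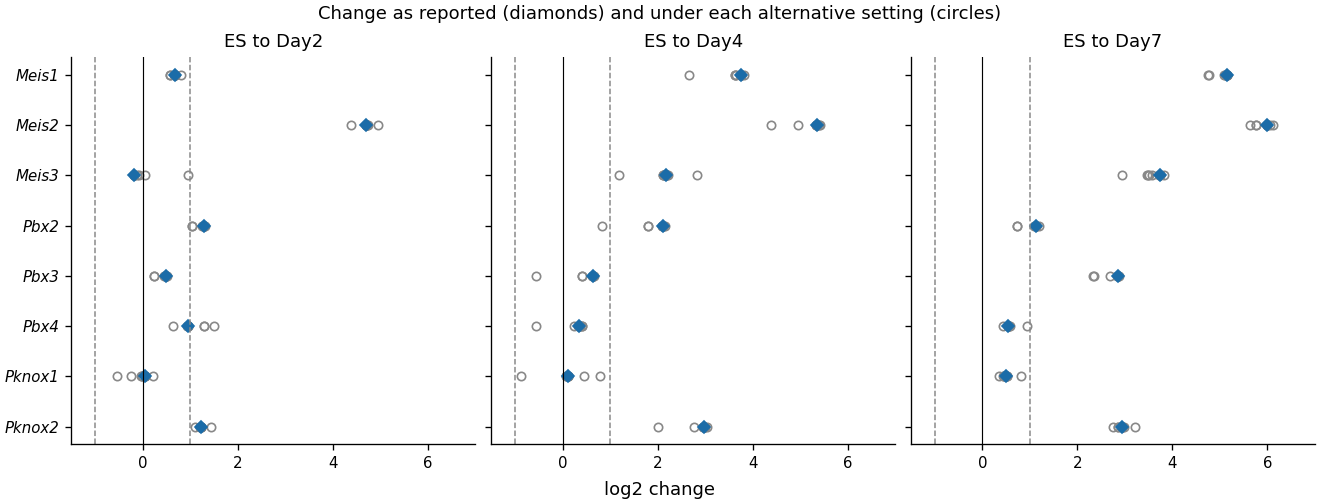
Log2 change (horizontal axis) of the 8 genes from ES to Day2, Day4 and Day7 as reported (diamonds) and under each alternative setting (open circles), with dashed lines at 2-fold. Meis2 stays beyond 2-fold in every setting shown and Pbx3 drops from 0.65 to -0.56 on Day4 without normalization.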

How the data were processed

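Agilent arrays of 5 samples, 1 per time point, were read by the authors with Agilent Feature Extraction 10.5.1, per the labels. The deposited scanner files hold the intensity of each spot after background subtraction, with flags for outliers and for spots well above background. The authors also deposited a log2 table, which equals the log2 median processed signal minus the 75th percentile of the array for 99.5% to 99.6% of probes (within 0.01) and served as an alternative. Array columns were grouped by their labels.

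Non-control, non-outlier spots were averaged per probe as log2, and quantile normalization, the study's stated approach, was done with limma 3.58.1 under R 4.3.3. Further steps ran in Python 3.11.15 with numpy 2.4.6, pandas 2.3.3 and matplotlib 3.10.9. Accessions were named through RefSeq tables on GRCm38.p6, and 5339 genes had more than 1 probe. A probe not well above background was set at the higher of its value and the lowest value well above background on that array, and changes from it are bounds. A gene that passed background on neither array was left out of that comparison. The number of arrays limits precision. The script was tested on simulated data.

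Members, gene lists and motifs were chosen with earlier results of these data known. Named were all members with every probe, up to 4 genes of a list by the size of their change, and the 3 genes nearest in course to each member with a range of at least 1 log2 unit. Alternatives were a shift to the 75th percentile, no normalization, normexp with an offset of 50, the deposited log2 table, a second detection flag, dim probes unfiltered, dim probes removed unless above background on each array compared, the mean over probes, the second brightest probe, thresholds of 1.5-fold and 4-fold, and a floor at the 95th percentile of ERCC probes. Normexp was run on median spot signals.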

Additional observations from a re-analysis of the deposited data

How the results depend on the processing

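Under 12 alternatives and 2 chosen after seeing the data (quantile normalization with the Day2 or the Day7 array left out), none of the 456 recomputed changes of single genes turned a change called at 2-fold to the opposite direction, and 99 moved by more than the error between spots. Only a change called at 2-fold could count as turned. Many of the recomputed values could not move, since most cofactor genes have 1 probe and all were bright on every array. For such genes, settings of probe choice, detection flag and dim probes repeat the main value. Of 134 counts of raised or lowered cofactor genes, 127 stayed within 1.5 times, with the same limit. The others were 5 raised from ES to Day2 at 1.5-fold and 1 at 4-fold, 7 raised from Day4 to Day7 without normalization and 1 at 4-fold, and 1 lowered from Day4 to Day7 (Pbx2) with the shift to the 75th percentile, the deposited log2 values and the 1.5-fold threshold. The thresholds change counts by construction, and the 7 raised without normalization go with an all-gene median of 1.06. For the others the cause was not tested. Meis3 fell short of 2-fold from ES to Day3 (0.94) and Pbx2 from ES to Day4 (0.84) without normalization, and Meis3 from Day4 to Day7 with the mean over probes (0.71) and the second brightest probe (0.82). Pbx2 fell short from ES to Day7 with the shift to the 75th percentile (0.72) and the deposited values. No paired analysis was possible because no stage has a second array, and for the same reason no replicate could be left out. Slide could not be fitted as a block, Day7 being the sole array of its slide. Signals of 10 spots of a probe varied by a median SD of 0.063 to 0.11 log2 units.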
